A study of Mus musculus with 2 samples.

Results

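The natriuretic peptide genes Nppa and Nppb, the gene of their processing enzyme Corin and the receptor genes Npr1, Npr2 and Npr3 were followed through long-read RNA sequencing of the mouse heart. All rows of the deposited tables that carried the names of these 6 genes were taken, and each of the 6 was counted in both libraries, out of 16269 reference genes with counts in either. The tissue came from the hearts of male B6CASTF1/J mice, F1 hybrids of C57BL/6J and CAST, at 14 days of age. The series holds 1 group of 2 libraries, which the labels call biological replicate 1 and replicate 2, so no treatment or genotype is compared, and no p-value here speaks of a condition. Both libraries carry the same donor label. Their tissue samples bear different numbers, yet a single tissue sample and a single set of cDNAs is named in the descriptions of both. Each tissue sample is labelled with 3 males, and pooling of their hearts is not stated. An SD given here therefore measures how far these 2 samples differ, a spread that may be technical.

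Natriuretic peptides are hormones by which the heart lowers blood volume and pressure. Nppa encodes atrial natriuretic peptide, which is stored in granules of atrial myocytes, and Nppb encodes B-type natriuretic peptide. Corin is a membrane serine protease of cardiomyocytes that cuts the precursor of atrial natriuretic peptide into the active hormone. Both cardiac hormones act on the guanylyl cyclase receptor encoded by Npr1 and raise cyclic GMP in the target cell. Npr2 encodes the cyclase receptor of the C-type peptide, and Npr3 a clearance receptor that has no cyclase domain and takes up all the peptides. In the mouse, Nppa is expressed in atria and ventricles of the embryo and is largely confined to the atria after birth.

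Nppa and Nppb are close neighbours. In the GENCODE M21 annotation on mm10, Nppb (ENSMUSG00000029019.8) lies on chromosome 4, 147985788 to 147987205, and Nppa (ENSMUSG00000041616.9) at 148000722 to 148002079, both on the plus strand and 13516 bases apart. Each has 1 annotated transcript of 3 exons, Nppa-201 (865 bases) and Nppb-201 (781 bases).

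The libraries had close to the same depth. The total was 1107678 counts in replicate 1 and 1110707 in replicate 2, and reference genes took 1059016 and 1064679 of these. Levels are given as CPM, the counts scaled to 1000000 reference-gene counts. A single count was worth 0.944 CPM in replicate 1 and 0.939 CPM in replicate 2, and the limit that a count of 0 allows was 2.83 and 2.82 CPM. A long read is counted once for its transcript, so counts were not divided by length, and ratios between genes are ratios of reads. All 10 listed cardiomyocyte markers were detected, with 45493 counts in replicate 1 and 46721 in replicate 2.

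Nppa was far above the other 5 genes in both libraries. It had 3757 counts in replicate 1 and 889 in replicate 2, which is 3548 CPM (95% interval 3435 to 3663) and 835 CPM (781 to 892). These levels put it at rank 22 of all genes in replicate 1 and rank 145 in replicate 2. The mean was 2191 ± 1918 CPM (SD, n = 2), so the SD was nearly as large as the mean. Nppb had 39 counts in replicate 1 and 32 in replicate 2, or 36.8 and 30.1 CPM (mean 33.4 ± 4.79, SD, n = 2). There were 96.3 Nppa reads for each Nppb read in replicate 1 (95% interval 70.3 to 136) and 27.8 in replicate 2 (19.5 to 40.9). These intervals do not overlap.

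**Figure D1:**
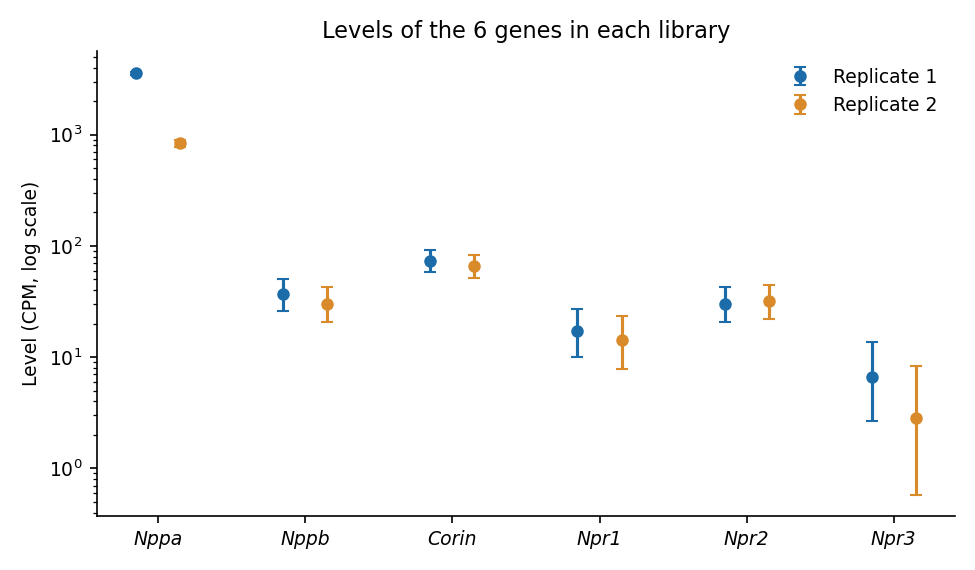
Level of each gene (x axis) in CPM on a log scale (y axis), with replicate 1 left of replicate 2. Points are single libraries and bars are exact 95% counting intervals; Nppa stands at 3548 and 835 CPM, and the intervals of the other 5 genes overlap between the libraries.

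Corin (ENSMUSG00000005220.10, chromosome 5, 72300025 to 72504473, minus strand) ranked next. Its reads numbered 78 in replicate 1 and 70 in replicate 2, or 73.7 and 65.7 CPM (mean 69.7 ± 5.59, SD, n = 2). Reads of the protease were more frequent than those of Nppb, with a ratio of Corin to Nppb of 2.00 in replicate 1 (95% interval 1.35 to 3.02) and 2.19 in replicate 2 (1.42 to 3.44). This order was lost when Known models alone (reads that match an annotated transcript) were counted. Corin and Nppb then had 38 counts each in replicate 1, and 25 and 31 in replicate 2 (means of 36.8 and 40.3 CPM), and could not be ordered. Its spliced transcript of 4862 bases is several times as long as those of the peptides. How length affects recovery of a transcript was not measured between genes.

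Of the receptors, Npr2 gave the most reads and Npr3 the fewest in both libraries. Npr2 (ENSMUSG00000028469.15, chromosome 4, 43631935 to 43651244, plus strand) had 32 counts in replicate 1 and 34 in replicate 2, a mean of 31.1 ± 1.21 CPM (SD, n = 2). Npr1 (ENSMUSG00000027931.12, chromosome 3, 90450591 to 90465866, minus strand) had 18 and 15 counts, a mean of 15.5 ± 2.06 CPM. The clearance receptor Npr3 (ENSMUSG00000022206.7, chromosome 15, 11839896 to 11907287, minus strand) had 7 and 3 counts, a mean of 4.71 ± 2.68 CPM, and its count in replicate 2 stood at the floor of 3 counts. The ratio of Npr2 to Npr1 was 1.78 in replicate 1, with an interval that takes in 1 (0.968 to 3.36), and 2.27 in replicate 2 (1.20 to 4.48). On Known models alone, Npr2 and Npr1 had 10 counts each in replicate 1, and 21 and 5 in replicate 2. Npr1 exceeded Npr3 with a ratio of 2.57 in replicate 1 (1.02 to 7.28) and 5 in replicate 2 (1.41 to 26.9). Nppb and Npr2 changed places between the libraries and could not be ordered.

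Between the libraries, the level of Nppa differed and no difference was detectable for the other 5 genes at this depth. Each gene with at least 10 counts over both libraries was tested by an exact binomial test (two-sided) on its share of the summed counts, and p-values were adjusted by the Benjamini-Hochberg method across 10162 genes. This test holds counting error only and compares the reads of these libraries. All 6 genes reached the minimum, Npr3 with exactly 10 counts. Of the 6, 1 passed the threshold of 0.05 on the adjusted p, which was Nppa, higher in replicate 1. Over all tested genes 331 passed (3.26%), 168 of them higher in replicate 1 (1.65%) and 163 higher in replicate 2 (1.60%).

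Nppa was 4.25-fold higher in replicate 1 than in replicate 2 (95% counting interval 3.95 to 4.58), a log2 ratio of 2.09 on CPM + 1 (adjusted p 3.7e-415, exact binomial test). By edgeR's exact test with a dispersion estimated over all genes (a biological coefficient of variation of 12.4%), Nppa also passed (adjusted p 4.4e-12), as 1 of 22 genes (0.216%). That dispersion came from the same 2 libraries taken as 1 group, which were then compared with each other. The edgeR test therefore holds no spread between replicates apart from the differences it tests, and its p-values do not measure one. The log2 ratio of all tested genes had a median of -0.08, with 5% of genes below -0.98 and 5% above 0.74. Among the 3433 genes with at least 100 counts, Nppa had the third highest ratio, and 5% of these genes lay above 0.48.

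For the other 5 genes the intervals of the fold included 1. The fold of replicate 1 over replicate 2 was 1.23 for Nppb (0.748 to 2.02) and 1.12 for Corin (0.801 to 1.57), so a difference of the size seen in Nppa lies outside both intervals. Among the receptors it was 1.21 for Npr1 (0.574 to 2.57), 0.946 for Npr2 (0.565 to 1.58) and 2.35 for Npr3 (0.536 to 14.1). The adjusted p was 0.877 for Nppb, 0.930 for Corin, 0.952 for Npr1, 1.00 for Npr2 and 0.727 for Npr3 in the exact binomial test. With 10 reads in all, Npr3 could not exclude a difference as large as that of Nppa.

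**Figure D2:**
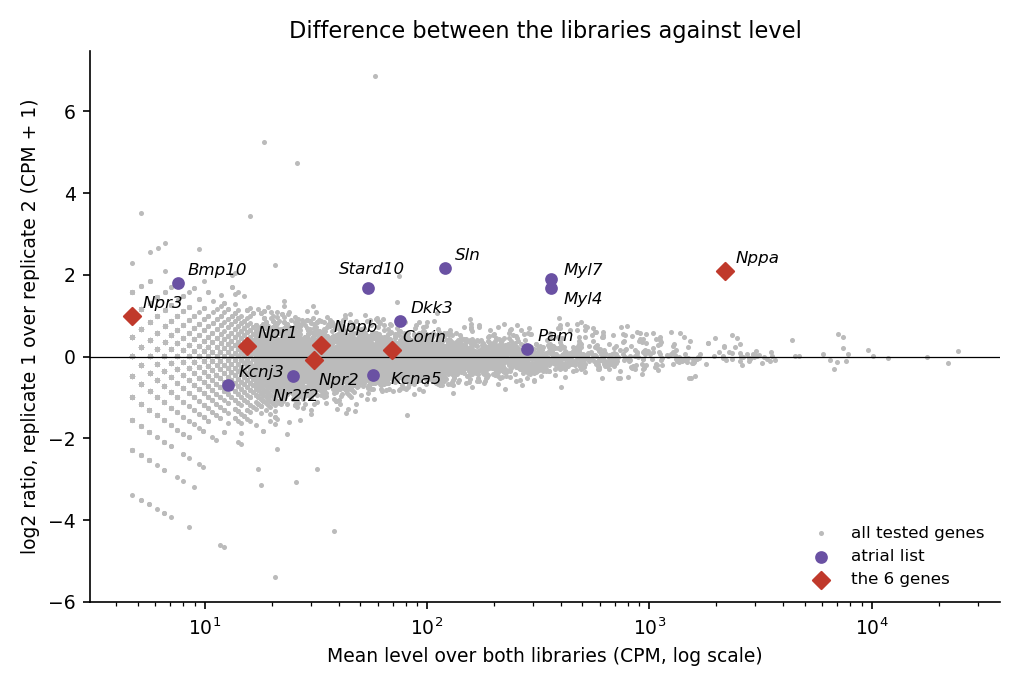
Log2 ratio of replicate 1 over replicate 2 on CPM + 1 (y axis) against the mean level in CPM on a log scale (x axis). Grey points are the 10162 tested genes, red diamonds the 6 genes and purple points the detected members of a list of atrial markers; Nppa lies at 2.09 beside Sln, Myl7 and Myl4, while Nppb, Corin, Npr1 and Npr2 lie near 0.

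The genes whose ratio came closest to that of Nppa were found among genes past the threshold with at least 100 counts, by the distance of log2 ratios over the 2 libraries. The closest was Sln, which encodes sarcolipin, an inhibitor of the calcium pump that is enriched in mouse atria. It had 209 counts in replicate 1 and 46 in replicate 2 (log2 ratio 2.17, distance 0.08). Next was Mybphl, a relative of the myosin binding proteins, with 127 and 32 counts (log2 ratio 1.96, distance 0.12). The atrial light chain genes Myl7 (602 and 161 counts, distance 0.18) and Myl4 (586 and 182 counts, distance 0.40) followed, and then Stard10 (88 and 27 counts, distance 0.41). Nppa reads per Sln read numbered 18.0 in replicate 1 (15.6 to 20.8) and 19.3 in replicate 2 (14.4 to 26.6). Nppa reads per Myl7 read numbered 6.24 (5.72 to 6.81) and 5.52 (4.66 to 6.57). The intervals of the libraries overlapped for Sln and Myl7, as they did for Mybphl and Stard10, which describes genes that were picked for a like ratio. They did not overlap for Myl4, with 6.41 Nppa reads per read in replicate 1 (5.88 to 7.01) and 4.88 in replicate 2 (4.16 to 5.76). Per Corin read there were 48.2 Nppa reads in replicate 1 (38.5 to 61.1) and 12.7 in replicate 2 (9.95 to 16.4), again without overlap.

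The list of atrial markers, from which Nppa was left out, had 10 of 11 members detected, and Nr2f1 was at 0 in both libraries. The list was chosen with earlier results of these data known. Of the 10, 5 passed the threshold of the exact binomial test as higher in replicate 1 (Myl7, Myl4, Sln, Dkk3 and Stard10), against 1.65% of all tested genes. None passed as higher in replicate 2, against 1.60% of all tested genes, and the median log2 ratio was 1.27. The edgeR test called 4 of the 5, all but Dkk3, against 0.216% of all tested genes. The other 5 did not pass, with log2 ratios of 1.80 for Bmp10 (13 and 3 counts), 0.18 for Pam (316 and 281), -0.46 for Kcna5 (51 and 71), -0.47 for Nr2f2 (22 and 31) and -0.70 for Kcnj3 (10 and 17). Dkk3 had 104 counts in replicate 1 and 57 in replicate 2 (log2 ratio 0.86). The summed list held 1889 CPM in replicate 1 and 823 CPM in replicate 2, a fold of 2.30 (2.12 to 2.49), less than that of Nppa. Ventricular markers had 4 of 6 members detected, with Hey2 and Hand1 at 0, and held 10415 CPM in replicate 1 and 9731 CPM in replicate 2. Of these, Myl2 passed the exact binomial test (2505 and 2110 counts, log2 ratio 0.26) and not the edgeR test, and the median was 0.01. In whole-tissue RNA, fewer cells of a type and less RNA per cell cannot be told apart. Whether a different share of atrial tissue in the samples accounts for the level of Nppa was not tested.

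Some markers of tissues other than heart also moved between the libraries. The thymus list had 6 of 7 members detected, Ptcra being at 0, and held 13.2 CPM in replicate 1 and 76.1 CPM in replicate 2. Its members Cd8a (0 and 26 counts), Cd8b1 (0 and 25) and Dntt (0 and 14) were higher in replicate 2. The other tested member, Cd1d1 (14 and 10), did not pass and gave all 14 counts of the list in replicate 1. Rag1 (0 and 2) and Rag2 (0 and 4) had too few counts to be tested. The fat list had 6 of 6 members detected and held 176 CPM in replicate 1 and 99.6 CPM in replicate 2. Ucp1 (32 and 2 counts) and Cidea (120 and 70) were higher in replicate 1. Adipoq (8 and 6) and Cfd (23 and 23) did not pass, and Plin1 (2 and 2) and Retn (1 and 3) had too few counts to be tested. The summed level of both lists is below that of Nppa in either library, but how much of these tissues was present was not measured. Of the 10 cardiomyocyte markers, 3 passed as higher in replicate 1 (Tnni3, Tnnc1 and Pln) and 2 as higher in replicate 2 (Myh6 and Actc1). The shares of all tested genes were 1.65% and 1.60%. All 10 log2 ratios lay between -0.15 and 0.45. Of the calls named for these lists, the edgeR test kept Cd8a, Cd8b1 and Ucp1 and lost Dntt, Cidea and all 5 cardiomyocyte calls. The endothelial, endocardial, fibroblast, smooth muscle and conduction lists had 0 members past the threshold, of 8, 4, 8, 8 and 1 tested. At an unadjusted p under 0.05 they had 1, 2, 5, 3 and 0, against 1247 of all 10162 tested genes (12.3%), and the edgeR test called 0. The part of these lists in the level of Nppa was not tested.

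The rest of the pathway showed no member past the threshold. Of 10 genes for related peptides, processing and clearance, 7 were detected and 0 of the 5 tested passed (1 at an unadjusted p under 0.05, against 12.3% of all tested genes, and 0 by edgeR), with a median log2 ratio of -0.50. Those with the most counts were Cpe, a carboxypeptidase of the secretory pathway (623 and 662 counts), the insulin-degrading enzyme Ide (49 and 75) and the proprotein convertase Pcsk6 (30 and 43), which activates corin. The C-type peptide gene Nppc and Ostn, whose product osteocrin binds the clearance receptor, had 0 counts in both libraries, which allows up to 2.83 CPM in replicate 1 and 2.82 CPM in replicate 2. Furin, a convertase that cuts the B-type precursor, had 27 counts in each. Nppc, Ostn and Furin were named for their roles, after their values were seen.

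Of 17 genes of cyclic GMP signalling, 16 were detected and 0 of the 11 tested passed (2 at an unadjusted p under 0.05, against the same 12.3%, and 0 by edgeR), with a median log2 ratio of -0.29. The phosphodiesterase genes Pde2a (92 and 113 counts), Pde1c (39 and 43) and Pde3a (20 and 36) led. Rgs2, a regulator of G-protein signalling that is a target of the cyclic GMP-dependent kinase, had 5 counts in replicate 1, against 21 in replicate 2, and did not pass (adjusted p 0.0680, exact binomial test). Of 16 transcription factors known to act on Nppa or Nppb, 16 were detected and 0 of the 12 tested passed (2 at an unadjusted p under 0.05, against 12.3%, and 0 by edgeR), with a median of -0.29. Nkx2-5 (198 and 199 counts), Gata4 (123 and 148) and Gata6 (111 and 115) led. Tbx5 had 22 counts in replicate 1, against 7 in replicate 2, and did not pass (adjusted p 0.115, exact binomial test). Rgs2 and Tbx5 were singled out after their values were seen.

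Nppa and Nppb are commonly grouped with genes of the fetal and stress programme. Of 6 further genes of that programme, 0 passed the threshold as higher in replicate 1 and 2 passed as higher in replicate 2, against 1.65% and 1.60% of all tested genes. The 2 were skeletal actin Acta1 (623 and 776 counts, log2 ratio -0.31) and Xirp2 (17 and 42 counts, log2 ratio -1.25). The edgeR test called 0 of the 6. The log2 ratios of Ankrd1, Fhl1 and Ccn2, which did not pass, were -0.25, -0.45 and -0.30. The beta myosin heavy chain gene Myh7, a fetal marker in the mouse ventricle, was low in both libraries, with 17 and 15 counts.

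Long reads also show which transcript each read came from. The authors sorted every model into classes. Known models match an annotated transcript, ISM models match part of its introns, NIC models join known splice sites in a new way, NNC models use a new splice site, and Genomic models are placed in none of these. Nppa reads were nearly all of the annotated form. Nppa-201 took 3714 of 3757 counts in replicate 1 and 879 of 889 in replicate 2, a share of 98.9% in each. Nppb-201 took 38 of 39 and 31 of 32 counts (97.4% and 96.9%).

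The remaining Nppa reads were mostly of 2 forms that kept an intron. Intron 1 (chromosome 4, 148000955 to 148001057, 103 bases) was kept in 23 of 3747 reads in replicate 1 (0.614%, 95% interval 0.389 to 0.920) and in 8 of 889 in replicate 2 (0.900%, 0.389 to 1.77). Intron 2 (148001385 to 148001774, 390 bases) was kept in 10 of 3749 reads in replicate 1 (0.267%, 0.128 to 0.490) and in 2 of 889 in replicate 2 (0.225%, 0.0273 to 0.810). For both introns the intervals overlapped, and no difference in the make-up of Nppa forms was detectable at this depth. A single-exon model of 305 bases at the 3′ end had 8 counts in replicate 1 and 0 in replicate 2. The annotated antisense gene Gm13054, which overlaps Nppa by 989 bases, had 0 counts in both libraries, and Clcn6, the next gene downstream, had 1 and 2. Whether the counting used strand is not given in the sources used here.

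**Figure D3:**
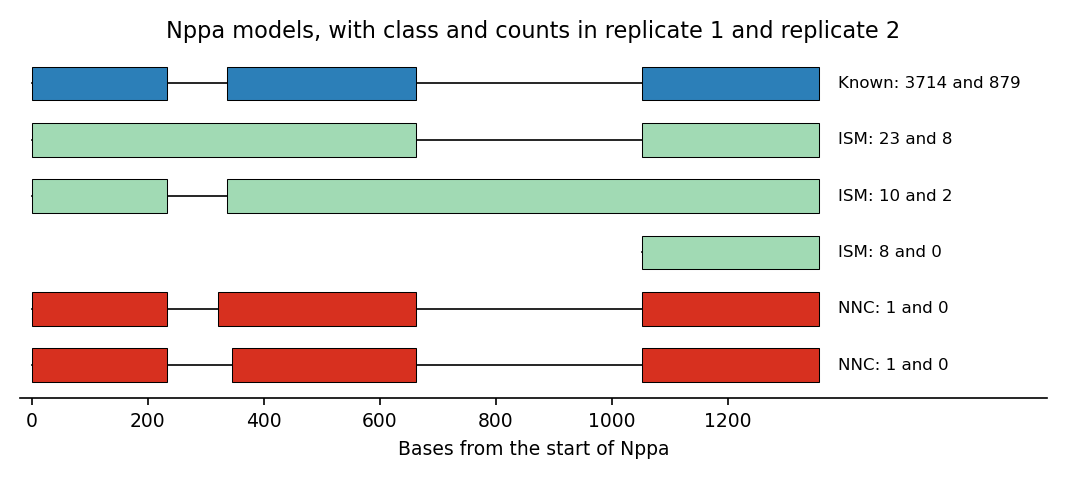
Exons (boxes) and introns (lines) of every Nppa model against the distance in bases from the start of the gene, coloured by class and labelled with class and counts in replicate 1 and replicate 2. The annotated form heads the map with 3714 and 879 counts, above the 2 forms that kept an intron.

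Corin reads were spread over many forms. There were 25 models in replicate 1 and 26 in replicate 2, and Known models took 38 of 78 counts (48.7%, 95% interval 37.2 to 60.3) and 25 of 70 (35.7%, 24.6 to 48.1). The annotated transcripts seen were Corin-201 (31 and 23 counts) and Corin-202 (7 and 2 counts), which differ in their first exon. Over both libraries 38 intron chains were not those of an annotated transcript, and 8 of them were in both. Many of these chains, and most of the 8, were of partial (ISM) models. Such models numbered 11 in replicate 1 (15 counts) and 12 in replicate 2 (18 counts). Models that matched only the 3′ part of an annotated transcript held 13 counts in replicate 1 and 16 in replicate 2.

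The form next to Corin-201 in abundance was an unannotated chain of 22 exons, with 10 counts in replicate 1 and 13 in replicate 2. It starts at another first exon, and its class in the files was NIC in replicate 1 and NNC in replicate 2 although the introns are the same. Its first exon ends at position 72501843 of chromosome 5, 2039 bases downstream of the end of the first exon of Corin-201, and measured 32 or 42 bases in the models. Among reads that splice into exon 2, that exon end was used in 13 of 59 in replicate 1 (22.0%, 12.3 to 34.7) and in 15 of 54 in replicate 2 (27.8%, 16.5 to 41.6). The first exon of Corin-201 was used in 34 (57.6%) and 29 (53.7%), and the annotated first exon upstream, that of Corin-202, in 7 (11.9%) and 3 (5.56%). The order of these first exons was the same in both libraries, and each had overlapping intervals. First exon ends are called unannotated here where no annotated transcript splices them to exon 2. Whether such an end is annotated elsewhere, as an NIC class would imply, was not examined.

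A further 5 unannotated first exon ends had 0 to 2 counts in each library. Some lay a few bases from another end, at 621 and 625 bases and at 2039 and 2047 bases downstream of that of Corin-201. Whether such ends are separate or differ only in the alignment of reads was not tested. Together the unannotated ones took 18 of 59 reads (30.5%, 19.2 to 43.9) and 22 of 54 (40.7%, 27.6 to 55.0). The first exon holds the start of the coding sequence in both annotated forms, with 267 coding bases of 327 in Corin-201 and 69 of 103 in Corin-202. The N-terminal, cytoplasmic end of the protease is therefore where these annotated forms differ. Whether the unannotated first exon holds a start codon was not examined.

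**Figure D4:**
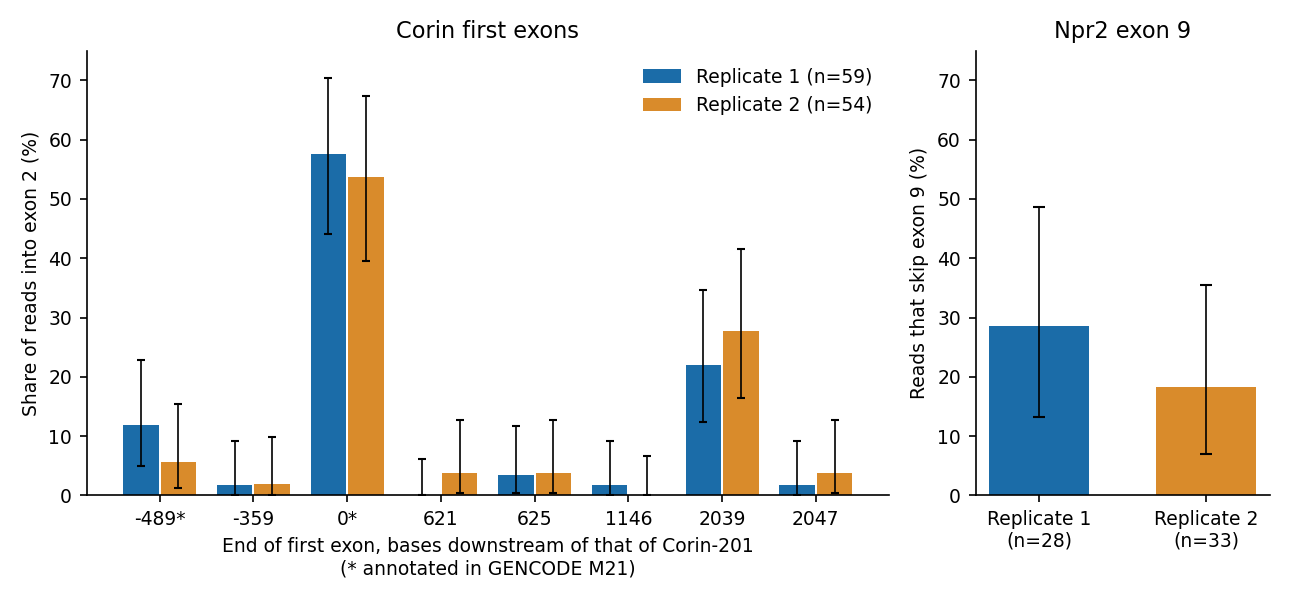
Left, share in percent of the Corin reads into exon 2 (y axis) that begin at each first exon end, placed by its distance in bases from that of Corin-201 (x axis, annotated ends starred); right, share in percent of Npr2 reads that skip exon 9. Blue bars are replicate 1, left of replicate 2 in orange, with exact 95% counting intervals. The end at 2039 bases, which no annotated transcript splices to exon 2, takes 22.0% and 27.8%. Npr2 exon 9 is skipped in 28.6% and 18.2%.

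Npr2 reads held 2 main forms. The annotated Npr2-201 of 22 exons had 10 counts in replicate 1 and 21 in replicate 2. An NIC form of 21 exons had 7 and 4. That form leaves out exon 9 (chromosome 4, 43643335 to 43643409), which is 75 bases long, keeps the reading frame and encodes 25 codons. Its model also begins upstream of Npr2-201 in both libraries, at -510 bases from the start of the gene. Other new models, each with 1 count, begin there and hold exon 9 in both libraries. The upstream start is therefore not particular to the form that skips the exon. Exon 9 is printed in capitals, 5′ to 3′ on the plus strand, with the 15 transcript bases that flank it on either side, because it is the exon that the shorter chain lacks (chr4:43643335-43643409 for the exon, from the GENCODE transcript).
Npr2 exon 9: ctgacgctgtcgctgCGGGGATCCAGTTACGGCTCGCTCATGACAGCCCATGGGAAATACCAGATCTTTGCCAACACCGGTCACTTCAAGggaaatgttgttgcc

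Counting reads that either splice from exon 8 to exon 10 or splice exon 9 to both neighbours, and so leaving out reads that kept an intron beside exon 9, 8 of 28 in replicate 1 (28.6%, 13.2 to 48.7) and 6 of 33 in replicate 2 (18.2%, 6.98 to 35.5) skipped exon 9. These intervals overlap. The junction itself is annotated in Npr2-203. As background, a mouse splice form of this receptor that lacks 25 residues of the kinase homology domain is known and has lost its activation by the C-type peptide. Known models took 31.2% of Npr2 counts in replicate 1 (16.1 to 50) and 61.8% in replicate 2 (43.6 to 77.8).

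The share of Known models was compared between the libraries with Fisher's exact test (two-sided) for the 5693 genes that reached 20 counts in each, and 11 passed the adjusted threshold (0.193%). Of the 6 genes, 4 had enough counts and 0 passed. The unadjusted p was under 0.05 for Npr2 (0.0156, adjusted p 0.922, Fisher's exact test), as for 280 genes in all, and it was 0.135 for Corin. Over the tested genes the median share of Known models was 84.3%, above Corin and Npr2 in both libraries and below Nppa and Nppb. Npr1 had 10 of 18 counts on Npr1-201 in replicate 1 (55.6%) and 5 of 15 in replicate 2 (33.3%), and partial (ISM) models held 7 and 5 counts. Npr3 had 3 counts on Npr3-205 and 2 on Npr3-201 in replicate 1, and 0 on annotated transcripts in replicate 2. Single-exon Genomic models held 2 Npr3 counts in each library. Npr1 and Npr3 had too few counts for the test.

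**Figure D5:**
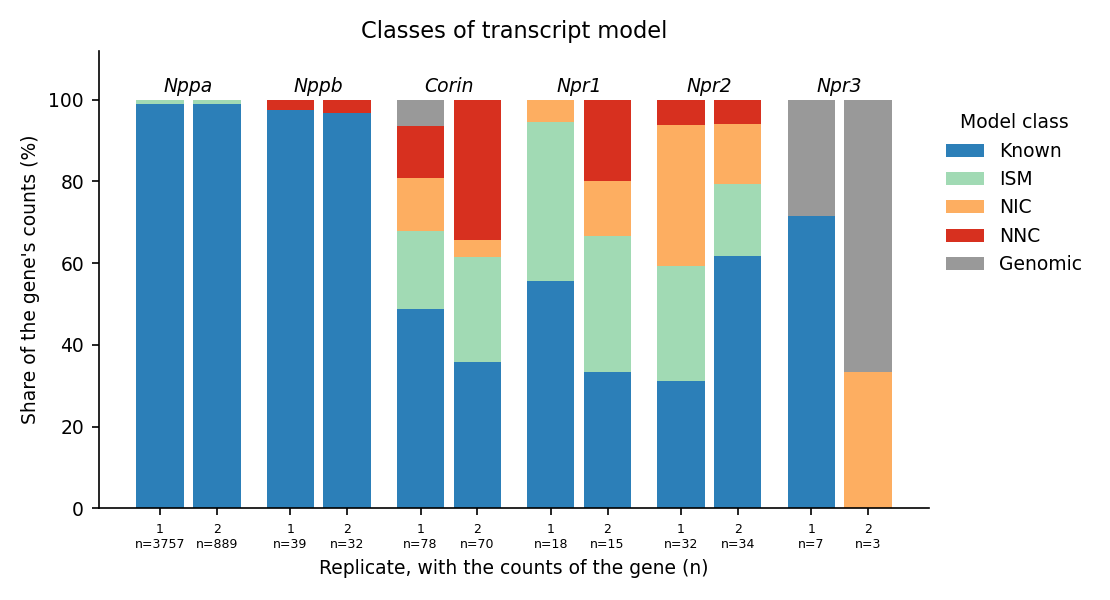
Share in percent of each gene's counts (y axis) by class of transcript model, with replicate 1 left of replicate 2 and the counts of the gene (n) under each bar. Known models hold nearly all counts of Nppa and Nppb in both libraries and 48.7% and 35.7% of those of Corin.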

How the data were processed

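Long-read RNA-seq of 2 heart libraries was analysed. The authors deposited whole-number counts of reads per transcript model without normalization, per the file headers, and the models and classes are theirs. The assembly is mm10 and the annotation GENCODE M21, per the files' notes. The aligner, its version, filters on models and use of strand were not given in the sources used here. Models are listed from 1 count upward.

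Model counts were summed per gene. Spike-ins (1.72% of counts in replicate 1 and 1.25% in replicate 2) and new genes (2.68% and 2.89%) name no reference gene and were left out of totals and tests. Intervals are exact (Clopper-Pearson for shares, and the matching binomial interval for ratios) at 95%, and with the floor of 3 counts cover counting error only, since no molecular identifiers tell reads apart that were copied from 1 molecule. Log2 ratios use a pseudocount of 1 CPM. Tests were tested on simulated data first. The TALON models of the deposited annotation were compared by their introns with GENCODE M21. Sequences and coding positions come from the GENCODE M21 transcripts. Ctgf was matched under its annotated symbol Ccn2. The 6 genes, the lists and the tests were chosen with earlier results of these data known. Text names the 6 genes, their Known models and 3 others each, list members past the threshold or else the 3 with most counts, the 5 genes most like Nppa and genes within 20 kb of Nppa or Nppb. Alternatives were TMM and DESeq2 size factors, other minimums, model classes, totals and pseudocount, removal of a trend on transcript length, edgeR's exact test and leaving out a library. Tools were Python 3.11.15, scipy 1.17.1, pandas 2.3.3, statsmodels 0.14.6, matplotlib 3.10.9, R 4.3.3, edgeR 4.0.16 and DESeq2 1.42.0.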

Additional observations from a re-analysis of the deposited data

Results flagged for a closer look

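A signal appeared in data outside the 6 genes. An unannotated gene on the opposite strand to Corin spans the 5′ end of Corin on chromosome 5. It ran from 72503257 to 72506416 in replicate 1 (2 counts) and to 72506413 in replicate 2 (5 counts). The count of 5 was above the floor of 3. Position 72503257 is also the unannotated Corin first exon end at 625 bases, and a link between them was not tested.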

How the results depend on the processing

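Nppa stayed past the threshold and higher in replicate 1 in every alternative run, with log2 ratios of 1.94 to 2.17, and the other 5 genes passed in none of those in which they had enough counts. Of 134 alternative values in 14 settings, 121 counted as kept and 13 as moved. A log2 ratio was kept if its gene stayed on the same side of the threshold. A change of sign below the threshold, as for Npr2 without the length trend, still counted as kept. Counts of genes and shares had limits of their own. A level was kept if it moved by less than the SD of the libraries. Leaving out 1 library could not move a level by this rule, because each of 2 values lies within their SD of the mean. Nppa thus counted as kept, at 835 CPM without replicate 1 and 3548 CPM without replicate 2. The other pseudocount changes no p-value, so no gene could cross the threshold with it. The 331 genes past the threshold became 211 without the length trend and 22 in edgeR's exact test. On Known models alone, levels were 40.3 CPM for Nppb, 36.8 for Corin, 8.77 for Npr1, 18.1 for Npr2 and 2.93 for Npr3. Nppb and Corin could not be ordered there, with 38 counts each in replicate 1. Npr3 was at 2.91 CPM without Genomic models, against 4.71 CPM. The 11 genes with a differing share of Known models became 39 without Genomic models and 106 with incomplete models counted as annotated. The pooled share of Known models was 83.3% for Npr3 without Genomic models, against 50%, and 81.8% for Npr1 with incomplete models counted, against 45.5%. Leaving out 1 library gave shares of 31.2% to 61.8% for Npr2 and 0% to 71.4% for Npr3. The log2 ratio of Npr2 ranged from -1.01 on Known models alone to 0.07. The cause of these moves was not tested. Npr1 and Npr3 were not tested with a minimum of 50 counts, nor Npr3 on Known models alone or without Genomic models. No paired analysis was possible because the series holds 1 group. Depth limits what can be said of Npr1 and Npr3, whose intervals span large folds, and 2 libraries give no spread for a condition.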
